A study of Mus musculus with 14 samples.

Results

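The distal end of the mouse X chromosome, from 150 Mb to the last covered position, was analysed in allele-specific RNA-seq of differentiating female ES cells. The region holds 341 of the 2239 X-linked SNPs between 129 and castaneus (CAST) for which reads were counted. It was taken by position alone, as all SNPs at 150 Mb or beyond, after 61 of 402 such SNPs had been left out because they lie in the gene bodies of Kdm5c, Acot9, Ap1s2, Piga, Prps2 and Hccs. The first of the 341 SNPs lies at 150571644 and the last at 169369934 on chromosome X of mm10 (GRCm38). In the GENCODE M21 annotation of that build 333 of them lie in exons of exactly 1 gene, 158 in coding sequence, 166 in UTRs and 9 in exons of non-coding transcripts. A further 5 lie in exons of more than 1 gene and 3 lie outside exons, and these 8 were used only for medians over SNPs. The 333 SNPs belong to 55 genes, of which 41 reached 10 reads in every library and were tested. The other 14 were too shallow to test.

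The cells were 1 line of female ES cells derived at E3.5 with CAST sires, Setdb1+/+ and Xist-deltaA/+. The labels give the dams as 129/C57, while the study describes them as 129. All conditions share this genotype. Since Xist∆A is on the 129 X, that chromosome remains active (Xa), and the CAST X is the obligate inactive one (Xi). There were 7 conditions with 2 replicates each, 14 libraries in all. Untransduced cells were collected at day 0. The other cells received a retrovirus with a non-silencing hairpin (Nons), with shSetdb1.4 or with shSetdb1.6, and were collected on days 3 and 5 after differentiation began. Both shSetdb1 hairpins target Setdb1, a methyltransferase of histone H3 lysine 9. The sources differ on the day of transduction. The labels place it on day 2, the study's methods at the start of differentiation and a figure legend on the day after induction. The study also mentions XO cells in these cultures, and their number per library is not given in the sources used here. The study calls the 2 replicates separate experiments, but with 1 cell line the p-values measure only the spread between these libraries.

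X inactivation silences 1 of the X chromosomes of each female cell. Xist RNA is made from the future Xi, coats it, and is followed by the loss of active histone marks, the gain of repressive marks and the silencing of most genes. The repeat A element of Xist is needed for silencing, which is why a chromosome that lacks it stays active. In a clonal hybrid line with a fixed Xi, silencing appears as a fall of the Xi allele against the Xa allele in transcripts that carry a SNP. Before differentiation both X chromosomes of a female ES cell are active.

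The libraries held between 32972 and 101511 reads at SNPs of the chromosome. Between 5029 and 15023 of these fell in the distal region, which is 14.4% to 15.6% of each library. Between 136 and 259 of the 341 SNPs had at least 10 reads in a library, with a median of 21 to 36.5 reads, so that ratios of single SNPs are imprecise. A read of 100 bp that covers several SNPs was counted at each of them. Of the SNPs in 1 gene, 44.1% had another SNP of the same gene within less than 100 bp. Setdb1 is autosomal, so the knockdown could not be checked in these counts. Nr0b1, an X-linked gene of pluripotent cells outside the region that was looked up after other values had been seen, had between 7367 and 16106 reads per 1000000 SNP reads in the 8 libraries of days 0 and 3. In the 6 libraries of day 5 it had between 104 and 458.

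The ratios rest on single-base differences such as the following, which are shown because the results below turn on them. Each line is 29 bases of the reference transcript in the 5′ to 3′ direction of the gene (GENCODE M21), with the SNP base in capitals at position 15. The base at the SNP equalled the reference base of the count table for 333 of 333 SNPs. For Phka2, Bclaf3 and Hsd17b10 a SNP with a low and one with a higher CAST share at day 0 are shown.
Phka2, low SNP: aatcagggcattccGgaactgaatgcaag
Phka2, most-read SNP: atatctacgcctctAcccccagaggagct
Bclaf3, low SNP: ttggcacaaggaacCcttttcaaaagagg
Bclaf3, most-read SNP: tggggaagccacctAagatgtcactgggg
Hsd17b10, low SNP: agggcttggtcgcgGtagtaactggagga
Hsd17b10, most-read SNP: gcaggagaaacaccAgctccttttcaatt
Maged2, most-read SNP: tcccaggaacctgaGgcacccccacccag
Gnl3l, most-read SNP: gttctattagcctcTcctttaccattcct
Klf8, most-read SNP: gaccacttaacaccAggcacacagtgttt
Ubqln2, most-read SNP: actgacattcaagaAcctatgctgaatgc

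Counted from the first base of each window, the CAST allele carries G15A in the low SNP of Phka2 (chrX:160531155, coding sequence) and A15T in the other (chrX:160577774, coding sequence). It carries C15T in the low SNP of Bclaf3 (chrX:159552361, coding sequence) and A15C in the other (chrX:159552205, coding sequence). In Hsd17b10 it carries G15A (chrX:152002290, coding sequence) and A15G (chrX:152004353, UTR). The window of Maged2 holds G15A (chrX:150810913, coding sequence) and that of Gnl3l T15C (chrX:150983441, UTR). The windows of Klf8 (chrX:153394687, UTR) and Ubqln2 (chrX:153499317, coding sequence) both hold A15G. Maged2 and Gnl3l are on the minus strand and the other genes shown on the plus strand. The genes span chrX:160502166-160598878 (Phka2), chrX:159526688-159593081 (Bclaf3), chrX:152001845-152004442 (Hsd17b10), chrX:150806370-150814345 (Maged2), chrX:150983141-151017322 (Gnl3l), chrX:153237466-153396132 (Klf8) and chrX:153498227-153501570 (Ubqln2).

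The first comparison asked how evenly the chromosomes were expressed before differentiation, since every later Xi/Xa ratio starts from this level. In untransduced cells 8 genes of the region were lower from the CAST X than from the 129 X, and Gnl3l, which encodes a nucleolar GTPase, was higher. Phka2, a regulatory subunit of phosphorylase kinase, had the lowest CAST/129 ratio of the 41 genes, with a log2 ratio of -1.81 (SE 0.27). Gemin8, a subunit of the SMN complex that assembles spliceosomal snRNPs, followed with -1.44 (SE 0.41), and Bclaf3 with -1.30 (SE 0.23). Pir, an iron-binding nuclear protein, was at -1.06 (SE 0.20). The mitochondrial dehydrogenase Hsd17b10 was at -0.87 (SE 0.19), the MAGE family member Maged2 at -0.79 (SE 0.24), the translation initiation factor Eif1ax at -0.54 (SE 0.18) and Pdha1, the alpha subunit of the E1 component of pyruvate dehydrogenase, at -0.52 (SE 0.13).

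By the quasi-likelihood test of edgeR, adjusted by Benjamini-Hochberg over the 247 genes tested on the chromosome, 9 of 41 genes of the region passed 0.05, against 22.3% of all genes. On the lower side 8 genes passed, against 14.2% of all genes, and on the higher side 1 gene passed, against 8.1%. The adjusted p was 5.26e-10 for Phka2, 7.31e-07 for Bclaf3, 1.91e-06 for Pir, 4.39e-05 for Hsd17b10, 0.000595 for Pdha1, 0.00353 for Gemin8, 0.00738 for Maged2 and 0.0196 for Eif1ax. Gnl3l had a log2 ratio of 0.39 (SE 0.12, adjusted p = 0.00711), and it did not pass in the fit without the replicate block. Over the 41 genes the median log2 ratio was -0.18, beside -0.08 over all 247, and 14 of 41 were above 0, beside 41.3% of all genes. The highest ratio of the region, 0.53 (SE 0.24, adjusted p = 0.111), belonged to Ctps2, a CTP synthase. The next highest was that of the transcription factor Klf8, which had log2 ratios of 0.73 and 0.28 in the 2 libraries.

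**Figure D1:**
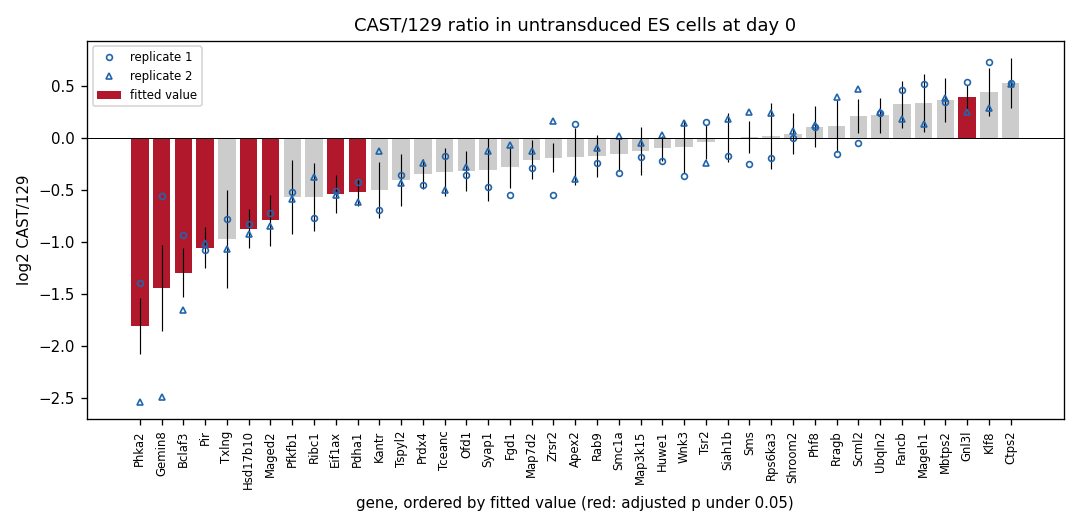
Log2 CAST/129 ratio at day 0 for the 41 genes tested, in order of the fitted value. Bars are fitted values with their SE, red where the adjusted p was under 0.05, and open circles and triangles are replicates 1 and 2. Phka2 is at the low end with -1.81, and 14 of 41 genes lie above 0.

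The replicates agreed closely for some of these genes and not for others. Pir had 68 CAST reads of 213 in replicate 1 and 75 of 227 in replicate 2, log2 ratios of -1.08 and -1.01. Hsd17b10 was at -0.83 and -0.92, Maged2 at -0.73 and -0.84, and Eif1ax at -0.51 and -0.55. Phka2 was at -1.39 from 44 CAST and 117 129 reads and at -2.53 from 13 and 80. Gemin8 was at -0.56 from 40 reads and at -2.49 from 31 reads, summed over its SNPs, so that its call rests on few reads and mostly on replicate 2. Its SNPs from 166190101 to 166190119 lie within 1 read length, so that the same reads can be counted at several of them. In the summed day 0 libraries each of these had 2 or 3 CAST and 7 or 10 129 reads. The SNP at 166180418, with no other within 100 bp, had 11 and 14 (-0.32). With the replicate block kept, 6 genes of the region passed without replicate 1 of the untransduced cells, and only Pir, Phka2 and Gnl3l without replicate 2, against 14.6% and 13.8% of all genes. In such fits 1 library is left in the condition and is assumed to vary like those of the other conditions, so that they show how the calls depend on a library and do not measure the spread at day 0.

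The imbalance of several genes was present in the later conditions as well. Phka2, Bclaf3, Pir, Hsd17b10 and Eif1ax were below 0 in each of the 14 libraries. Their medians over the libraries were -1.96, -0.84, -0.90, -0.61 and -0.56. Pdha1 was below 0 in 13 libraries, Maged2 in 12 and Gemin8 in 11. Gnl3l was above 0 in 12 libraries, between -0.04 and 0.53. The day 0 libraries are among the 14, so these counts describe the same imbalance and are no separate test of it.

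Within the genes the SNPs did not all show the same ratio. In Bclaf3 the 5 SNPs ranged from -3.81 to -0.34 in the summed day 0 libraries. Its most-read SNP had 34 CAST and 50 129 reads (-0.54). The SNP at 159552361, in the same gene, had 3 CAST and 55 129 reads (-3.81). In Hsd17b10 the SNP at 152002290 had 19 CAST and 77 129 reads (-1.96), and the one at 152004353 had 120 and 148 (-0.30). In Phka2 all 10 SNPs with at least 10 reads were lower from CAST, from -3.0 at 160531155, with 1 CAST and 15 129 reads, to -0.12 at 160562798. Its most-read SNP over all libraries was at -0.29, with 17 CAST and 21 129 reads. The SNPs of Pir were closer together, with all 5 below 0, from -1.30 to -0.47. In Pdha1 the 4 SNPs lay between -0.72 and -0.42. In Gnl3l 13 of 15 SNPs were above 0.

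**Figure D2:**
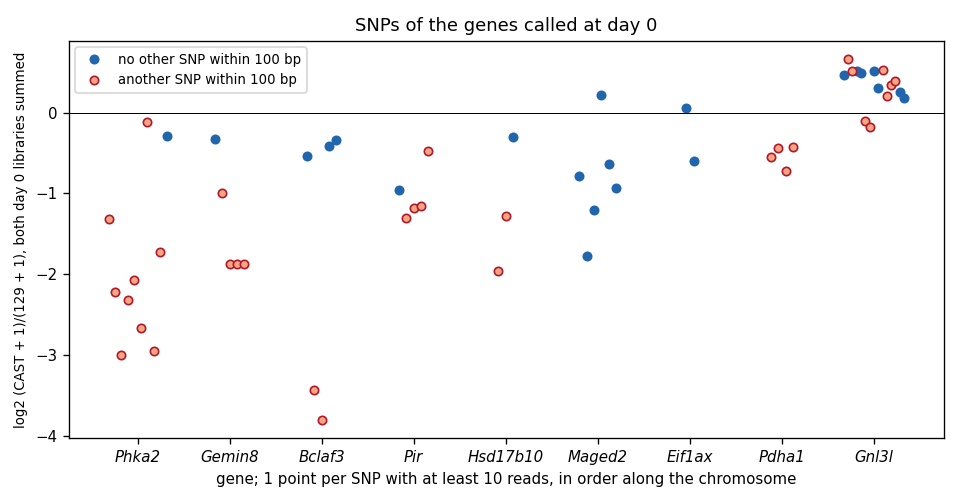
Log2 CAST/129 ratio of each SNP with at least 10 reads in the summed day 0 libraries, for the 9 genes called at day 0. Filled blue points have no other SNP of the count table within 100 bp and light red points have at least 1. In Bclaf3 the SNP pair near each other lies at -3.43 and -3.81 and the isolated SNPs at -0.54 to -0.34, while the 6 SNPs of Maged2 are all isolated and range from -1.78 to 0.22.

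The low SNPs were often those with another SNP close by. Of the 341 SNPs, 150 had another SNP of the table within 100 bp and 191 did not. At day 0 the former had a median log2 ratio of -0.35 in replicate 1 and -0.12 in replicate 2, and the latter one of -0.02 and 0. Over the 14 libraries the median was lower for SNPs with a neighbour in 12 and higher in 2. Below 150 Mb it was lower in 10 libraries and equal in 4. The part of SNP spacing in the ratios was not tested, but the genes were fitted again on isolated SNPs alone, an alternative added after the SNPs had been seen. Then 5 of 35 genes of the region passed at day 0, against 18.9% of 212 genes. Maged2 (-0.79), Eif1ax (-0.54), Gnl3l (0.39) and Pir (-0.96) still passed. All SNPs of Maged2 and Eif1ax are isolated, so that their fits used the same counts as before. The 2 SNPs of Eif1ax differed at day 0, with 26 CAST and 25 129 reads at 159372244 (0.05) and 176 and 268 at 159372373 (-0.60). Prdx4, a peroxiredoxin of the endoplasmic reticulum, passed with -0.35, the same value as with all SNPs. Bclaf3 (-0.46, adjusted p = 0.176) and Hsd17b10 (-0.28, adjusted p = 0.38) did not pass. Phka2, Gemin8 and Pdha1 had too few isolated SNPs or reads to be fitted.

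The next comparison followed the control cells through differentiation. Between untransduced cells at day 0 and Nons at day 3, transduction and time differ together and cannot be told apart. From day 0 to Nons at day 3 none of the 41 genes passed an adjusted p of 0.05 by edgeR. At an unadjusted p of 0.05 1 passed (11 of all 247 genes), and DESeq2 also made 0 calls with 1 at the unadjusted level (10 of 247). No gene of the whole chromosome passed either (0%). The regional median log2 ratio was -0.19 and 0 in the untransduced libraries and 0 and -0.08 in Nons at day 3. Fitted changes were above 0 in 26 of 41 genes, beside 57.1% of all genes, with a median of 0.05 beside 0.04 over all 247 genes.

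From day 3 to day 5 the CAST allele of Klf8, a Krüppel-like transcription factor, fell against the 129 allele, and most of the other genes had lower values without passing the test. In Nons at day 3 Klf8 had 68 CAST and 65 129 reads in replicate 1 and 114 and 112 in replicate 2. At day 5 it had 17 and 71 in replicate 1 and 12 and 17 in replicate 2. The log2 ratio was thus 0.06 and 0.03 at day 3 and -2.0 and -0.47 at day 5, with no overlap of the days. The change was -1.56 (SE 0.41, adjusted p = 0.00371 by edgeR). It was the only gene of the 41 that passed, against 10.1% of all genes and 9.72% on the lower side. All 5 of its SNPs with enough reads at both days were lower at day 5. The call was lost without replicate 1 of Nons at day 5, with -0.53 and an adjusted p of 0.736, where the spread at day 5 is again taken from the other conditions. Over all alternatives tried the change of Klf8 ran from -2.11 to -0.53, and that of Pir from -1.17 to -0.08.

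Of the 41 genes 32 were lower at day 5 than at day 3, beside 75.3% of all genes, with a median change of -0.23 beside -0.33 over all 247 genes. With ratios centred on each library's median 25 of 41 were above 0, beside 51.8% of all genes, and the median was 0.11 beside 0.02. Klf8 was still the only call, against 8.1% of all genes. At an unadjusted p under 0.05 there were 8 of the 41 genes, beside 57 of all 247. Among them were Shroom2, an actin-binding protein, with -0.72 (SE 0.30, adjusted p = 0.103) and Pir with -0.73 (SE 0.31, adjusted p = 0.103). The regulatory enzyme Pfkfb1 had the highest value, 1.00 (SE 0.54, adjusted p = 0.239), from 18 or more reads per library. Over SNPs, the regional median went from 0 to -0.42 in replicate 1 and from -0.08 to -0.17 in replicate 2. The mean difference was -0.25 ± 0.23 (SD, n = 2; exact permutation test within replicates, two-sided, p = 0.5, the smallest that 4 arrangements allow). The region differed from the rest of the chromosome by 0.12 in this change (exact permutation p = 0.5, also the smallest possible).

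**Figure D3:**
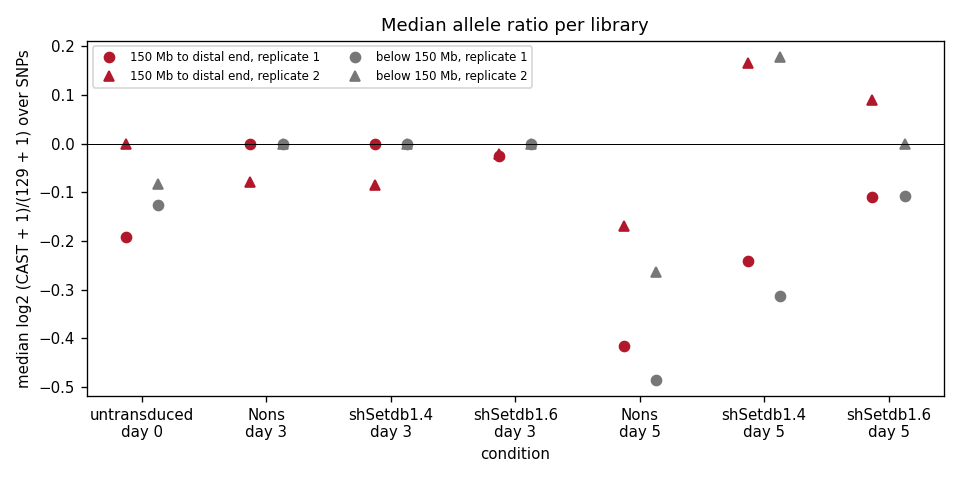
Median log2 (CAST + 1)/(129 + 1) over SNPs with 10 reads or more, for each library and for SNPs from 150 Mb on (red) and below 150 Mb (grey). Circles are replicate 1 and triangles replicate 2. At day 5 Nons of replicate 1 is at -0.42 in the region and the hairpin libraries of that replicate are at -0.24 and -0.11.

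The comparison of the Setdb1 hairpins with Nons at day 5 addressed whether silencing of the Xi depends on Setdb1. In each replicate the regional median was higher with either hairpin than with Nons. In replicate 1 Nons was at -0.42, shSetdb1.4 at -0.24 and shSetdb1.6 at -0.11, and in replicate 2 the values were -0.17, 0.17 and 0.09. Replicate 2 was above replicate 1 in each of these conditions, so that the hairpin libraries of replicate 1 overlap with Nons of replicate 2. The mean difference between hairpins and Nons within replicates was 0.27 ± 0.041 (SD, n = 2), and 4 of 4 hairpin libraries were above their Nons library. The exact permutation test within replicates gave p = 0.111, which is the smallest value that 9 arrangements allow, and without the pairing it gave p = 0.2. For shSetdb1.4 alone the difference was 0.26 ± 0.11 (SD, n = 2) and for shSetdb1.6 alone 0.28 ± 0.033 (SD, n = 2). The rest of the chromosome moved by 0.31 and 0.32. The region minus the rest differed by -0.04 (exact permutation p = 0.333), so that a difference between the distal end and the rest was not resolved.

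For single genes the values were mostly higher with the hairpins, but none of the 41 passed. The gene with the smallest adjusted p was Ubqln2, a ubiquilin that carries ubiquitinated proteins to the proteasome, with 0.58 (SE 0.20, adjusted p = 0.0515 by edgeR). In Nons it had 224 CAST and 303 129 reads in replicate 1 and 127 and 92 in replicate 2. With shSetdb1.4 it had 226 and 211, and 558 and 273. With shSetdb1.6 it had 319 and 261, and 302 and 179. The log2 ratios of the Nons libraries were -0.43 and 0.46, those of shSetdb1.4 were 0.10 and 1.03, and those of shSetdb1.6 were 0.29 and 0.75. Each hairpin library was above Nons of its own replicate, and the groups overlapped between replicates.

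Sms, the spermine synthase, had a log2 ratio of 0.01 in both Nons libraries. The shSetdb1.4 libraries had 0.25 and 0.68, and the shSetdb1.6 libraries had 0.64 and 0.80. All 4 hairpin libraries were above both Nons libraries, and the fitted difference was 0.57 (SE 0.20, adjusted p = 0.0628). Maged2 was at -0.87 and -0.89 with Nons and at -0.49, 0.07, 0.14 and -0.24 with the hairpins, again without overlap, with a difference of 0.77 (SE 0.27, adjusted p = 0.0736). Shroom2 was at -0.76 and -0.56 with Nons and between -0.42 and 0.03 with the hairpins, with 0.50 (SE 0.20, adjusted p = 0.103). Huwe1, a HECT ubiquitin ligase and the gene with the most reads of the region, was at -0.54 and -0.10 with Nons. The shSetdb1.4 libraries were at -0.28 and 0.24 and the shSetdb1.6 libraries at -0.10 and 0.16, a difference of 0.34 (SE 0.15, adjusted p = 0.137).

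Against a background of 4.05% of all genes, and 3.64% on the higher side, 0 of the 41 genes passed 0.05 by edgeR and 0 by DESeq2, with 9 and 6 at an unadjusted p under 0.05. Over all 247 genes 62 and 44 were under that unadjusted p. The 9 genes were Ubqln2, Sms, Maged2, Shroom2, Huwe1, the histone demethylase Phf8, Kantr, whose 10 SNPs lie in its UTR, Pdha1 and Tspyl2, a relative of nucleosome assembly proteins. Fitted differences were above 0 in 35 of 41 genes (85.4%), beside 83.4% of all genes, and their median was 0.33 beside 0.35. Centring the ratios on each library's median takes out the part shared by the chromosome, and then 21 of 41 were above 0 beside 53.4% of all genes, with a median of 0.02 in both. In that fit Ubqln2 was at 0.26, Sms at 0.23, Maged2 at 0.44, Huwe1 at 0.02 and Pdha1 at 0.04, and 1 of the 41 had an unadjusted p under 0.05, beside 22 of 247. In 16 of 41 genes (39.0%) the ratio was higher in all 4 hairpin libraries than in Nons of the same replicate, against 49.8% of all genes. Bclaf3 was the only gene of the 41 that was lower in all 4 (2.44%, against 2.43% of all genes). Its log2 ratio was -1.25 and -0.29 in the Nons libraries, -1.31 and -0.82 under shSetdb1.4 and -1.47 and -0.82 under shSetdb1.6.

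The fitted differences ran from -0.23 to 0.90 over the 41 genes. Gemin8 had the highest, 0.90 (SE 0.50, adjusted p = 0.217 by edgeR), from 17 to 60 reads per library. Mbtps2, a protease that activates transcription factors in the Golgi, had the lowest, -0.23 (SE 0.29, adjusted p = 0.603). It was at 0.11 and 1.61 with Nons, the latter from 48 CAST and 15 129 reads, and between 0.10 and 0.87 with the hairpins, overlapping the controls. Among the genes with the most reads, Gnl3l was at -0.01 and 0.10 with Nons and between 0.05 and 0.49 with the hairpins, with a difference of 0.28 (SE 0.16, adjusted p = 0.217). Prdx4 was at -0.70 and -0.56 with Nons and between -0.59 and -0.13 with the hairpins, a difference of 0.28 (SE 0.19, adjusted p = 0.303). Zrsr2, a splicing factor of minor introns, had 0.23 (SE 0.20, adjusted p = 0.424), and Smc1a had -0.08 (SE 0.21, adjusted p = 0.81). With ratios centred on each library's median the values of Gnl3l, Prdx4 and Zrsr2 were below 0. Those of Gemin8, Mbtps2 and Smc1a changed sign when single libraries were left out. Gemin8 was at -0.09 without replicate 1 of Nons, Mbtps2 at 0.20 without replicate 2 of Nons, and Smc1a at 0.02 without replicate 1 of shSetdb1.4.

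The genes of chromatin with fewer reads and Kantr had larger errors. Phf8 was at -0.60 and -0.21 with Nons and at -0.34, 0.42, 0.24 and 0.16 with the hairpins, with overlap. Tspyl2 was at -0.75 and -0.90 with Nons and at -0.27, -0.32, -0.25 and 0.41 with the hairpins, with no overlap. Kantr was at 0 and -0.74 with Nons and between 0.25 and 0.68 with the hairpins, also with no overlap. The differences were 0.58 (SE 0.27), 0.68 (SE 0.34) and 0.81 (SE 0.38), with adjusted p-values by edgeR of 0.162, 0.181 and 0.166.

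The count of called genes depended on 1 library. Without replicate 1 of shSetdb1.4 at day 5, Ubqln2 (0.74), Huwe1 (0.44), Sms (0.65), Maged2 (0.98), Gnl3l (0.42), Pdha1 (0.49), Shroom2 (0.57) and Phf8 (0.76) passed with adjusted p-values by edgeR between 0.00399 and 0.0295, against 21.4% of 248 genes. On isolated SNPs alone Maged2 (0.77, adjusted p = 0.0337) and Shroom2 (0.50, adjusted p = 0.0409) passed, against 7.08% of 212 genes. With the minimum raised to 30 reads per library Ubqln2 (0.59, adjusted p = 0.0366) and Sms (0.57, adjusted p = 0.0419) passed among 32 genes of the region, against 8.47% of 177 genes.

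**Figure D4:**
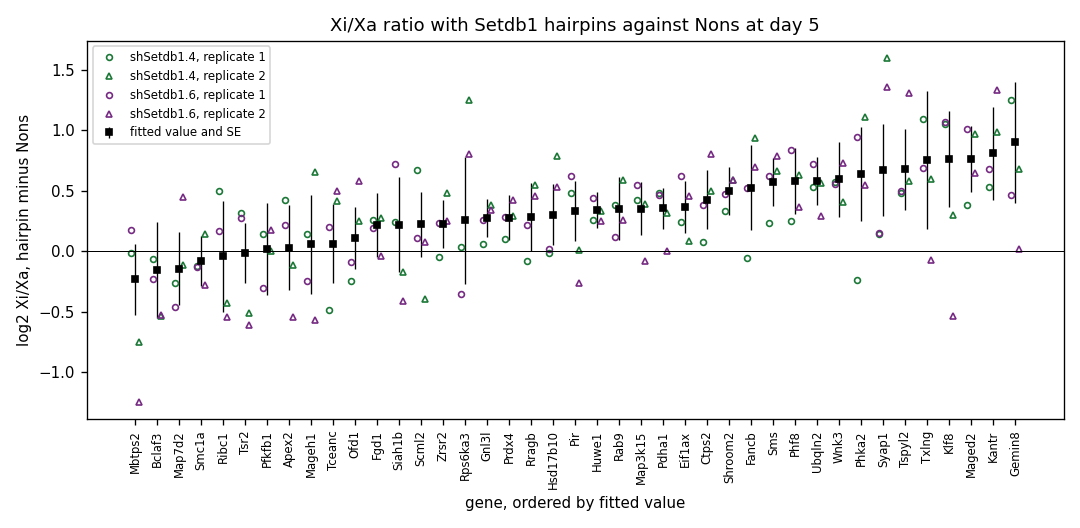
Difference of the log2 Xi/Xa ratio between each Setdb1 hairpin library and Nons of the same replicate at day 5, for the 41 genes tested. Black squares with bars are the fitted differences with their SE, green symbols are shSetdb1.4, purple symbols shSetdb1.6, circles replicate 1 and triangles replicate 2. Fitted values are above 0 in 35 of 41 genes, and Bclaf3 has all 4 libraries below 0.

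At the level of SNPs, 109 of 210 SNPs of the region (51.9%) had a higher ratio with both hairpins than with Nons in replicate 1, against 51.5% of the SNPs of the chromosome. In replicate 2 it was 77 of 136 (56.6%), against 59.1%. At day 3 the shares were 33.3% and 26.6%, against 29.1% and 33.6%. Lower with both hairpins were 16.2% and 20.6% at day 5, against 17.5% and 16.9%. At day 3 it was 33.3% and 36.4%, against 34.5% and 29.5%. Of the 132 SNPs covered in both replicates at day 5, 37 were higher in both, against 32.6% of 763 SNPs, and 3 were lower in both, against 2.36%. They lay in 16 genes, among them 5 of 11 covered SNPs of Shroom2, 5 of 14 of Gnl3l, 4 of 5 of Ubqln2, 3 of 3 of Phf8, 3 of 9 of Sms and 3 of 10 of Huwe1. The shares in the distal region lay on both sides of those of the whole chromosome, and SNPs within 1 read length share reads.

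At day 3 the hairpins and Nons gave nearly the same regional median. The difference was 0.006 ± 0.027 (SD, n = 2; exact permutation p = 1), with values of -0.01 in replicate 1 and 0.02 in replicate 2. Again 0 of the 41 genes passed by edgeR, with 1 at an unadjusted p under 0.05 (7 of all 247), and DESeq2 gave the same counts for the region. The background was 0%. That gene was Syap1, which encodes synapse-associated protein 1, with -1.10 (SE 0.42, adjusted p = 0.67). Nons gave log2 ratios of 0.53 and 0.48, shSetdb1.4 gave -1.45 and -0.68, and shSetdb1.6 gave -0.35 and 0, so the hairpin libraries were all lower. At day 5 the order was the other way, where Nons gave -0.43 and -0.94, shSetdb1.4 gave -0.29 and 0.66, and shSetdb1.6 gave -0.28 and 0.41. The difference of the hairpin effect between the days was 1.78 for Syap1 (SE 0.57, adjusted p = 0.141), from 36 to 102 reads per library. None of the 41 genes passed in this test of the days by edgeR or DESeq2, against 0.81% of all genes by edgeR. At an unadjusted p under 0.05 there were 4 and 3 of the 41, beside 32 and 19 of all 247. Without replicate 1 of shSetdb1.4 at day 5, Sms (0.83, adjusted p = 0.0315) and Syap1 (1.97, adjusted p = 0.0328) passed by edgeR, against 4.44% of 248 genes.

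Grouped by role, the genes moved as follows, with lists that were made with earlier results of these data known. Of 8 chromatin and transcription genes listed 5 were tested (Phf8, Smc1a, Scml2, Tspyl2 and Klf8). With the hairpins at day 5, 4 had higher fitted values and 1, the cohesin subunit Smc1a, a lower one, with a median of 0.58 beside 0.35 over all genes. From day 3 to day 5 in Nons all 5 had lower values, as had 186 of all 247 genes, with a median of -0.32 beside -0.33. Klf8 passed, against 9.72% of all genes on the lower side. Of 10 metabolic and mitochondrial genes 7 were tested, and 3 of them (Phka2, Hsd17b10 and Pdha1) were called lower from CAST at day 0, against 14.2% of all genes, with a list median of -0.52 beside -0.08 over all genes. At day 5 all 7 had higher fitted values with the hairpins, as had 83.4% of all genes, and none passed, with a median of 0.36 beside 0.35.

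Among the 7 genes, all tested, for translation, RNA processing and genome maintenance, 2 were lower at day 0 (Gemin8 and Eif1ax) and 1 higher (Gnl3l), against 14.2% and 8.1% of all genes, with a median of -0.18 beside -0.08. Their median hairpin difference at day 5 was 0.28, with 6 of 7 above 0. The 3 tested genes of 5 for ubiquitin and protein turnover (Huwe1, Ubqln2 and Siah1b) had fitted values of 0.34 at the median, all above 0. In the list of 12 genes of membrane traffic, cytoskeleton and cilium 5 of 6 tested genes were above 0 with a median of 0.29. In that of 7 genes of the MAGE family and signalling it was 5 of 5 with a median of 0.28. None passed with the hairpins in any of the 6 lists. Over all genes 83.4% were above 0 with a median of 0.35, and the counts of the lists are to be read against these.

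Along the region, in stretches of 5 Mb, the hairpin difference at day 5 was above 0 in each stretch and replicate. In the most proximal stretch, with 157 SNPs, the difference of medians was 0.29 in both replicates, and 16 of 19 tested genes had higher fitted values. In the next it was 0.01 and 0.48, with 4 of 7 genes higher. In the stretch from 160 Mb it was 0.31 and 0.19, with 11 of 11 genes higher, and from 165 Mb to the end 0.22 and 0.54, with 4 of 4. The share of higher genes on the whole chromosome was 83.4%. The stretches hold few genes each, and differences between them were not tested. At the proximal edge the last SNP below 150 Mb lies in Luzp4, with 79 reads in all 14 libraries, and the first one inside in Apex2, an AP endonuclease of DNA repair. At day 5 Apex2 had log2 ratios of -0.68 and 0.10 in the control, -0.25 and -0.01 under shSetdb1.4 and -0.46 and -0.45 under shSetdb1.6, with overlap of the groups. The most distal gene, BC022960, had 337 reads in all and was not tested.

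Gene totals, the sum of reads from both alleles, were compared to describe expression regardless of the allele. They cover SNPs of X-linked genes only, so that a change is relative to the other X-linked genes. Between untransduced cells at day 0 and Nons at day 5, 8 genes of the region rose and Map7d2, a microtubule-associated protein, fell. Transduction and time differ together in this comparison and cannot be told apart. Map3k15, a MAP kinase kinase kinase, rose by 1.90 on the log2 scale (SE 0.25, adjusted p = 9.42e-05 by edgeR). It had 1741 and 1303 reads per 1000000 SNP reads at day 0 and 4949 and 6005 in Nons at day 5. Shroom2 rose by 1.77 (SE 0.21, adjusted p = 4.13e-05), from 2606 and 1978 to 6958 and 8128 reads per 1000000. Ctps2 rose by 1.44 (SE 0.25, adjusted p = 0.000697), from 1654 and 1122 to 3456 and 3821.

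The other genes that rose were Pfkfb1 (1.03), Rragb (0.87), a Rag GTPase that signals amino acids to mTORC1, Eif1ax (0.86), Maged2 (0.85) and Ubqln2 (0.75), with adjusted p-values by edgeR from 0.0201 to 0.0358. Map7d2 had 4009 and 3559 reads per 1000000 at day 0 and 1275 and 2487 in Nons at day 5, a log2 difference of -1.0 (SE 0.28, adjusted p = 0.0189). Together 9 of 41 genes passed, against 23.5% of all genes. On the higher side the background was 14.2% and on the lower side 9.31%. Only Shroom2, Map3k15 and Ctps2 passed with each of the 4 libraries left out in turn. Map7d2 was lost without replicate 1 of Nons at day 5 (-0.55) or of the untransduced cells (-0.93). Ubqln2 passed only without replicate 2 of the untransduced cells, and ran from 0.44 to 1.15. Eif1ax was lost without replicate 2 of Nons at day 5 (0.51) or replicate 1 of the untransduced cells (0.74). Maged2, Rragb and Pfkfb1 were lost without 2 or 3 of the 4 libraries, with values from 0.61 to 1.32. With the replicate block 15 of 41 passed, against 34.4% of all genes. The same 8 were higher (17.8% of all genes), and 7 were lower (16.6%), namely Map7d2, Scml2, Bclaf3, Tsr2, Zrsr2, Siah1b and Klf8, with log2 differences from -1.33 to -0.47 and adjusted p-values by edgeR from 0.0111 to 0.0487. Without the block the 6 additional genes had adjusted p-values from 0.0548 to 0.0861. For Shroom2, Map3k15 and Ctps2 both Nons libraries of day 3 were below those of day 5, with 1245 and 1613 reads per 1000000 for Shroom2, 1206 and 650 for Map3k15 and 1576 and 988 for Ctps2. Eif1ax had 2831 and 3245 at day 0, 4067 and 3739 in Nons at day 3 and 4076 and 6642 in Nons at day 5. The raw reads of Shroom2 were higher at day 5 from both alleles. There were 104 and 84 CAST reads at day 0 and 225 and 108 in Nons at day 5, beside 104 and 80 129 reads and then 381 and 160.

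With the hairpins no total passed against Nons, either at day 5 or at day 3, with 1 gene at an unadjusted p under 0.05 at each day by edgeR (6 and 4 of all 247) and 0 and 1 by DESeq2 (5 and 1 of 247), which also made 0 calls. The background was 0% at both days. The median difference over the 41 genes was 0.02 at day 5, with 24 higher and 17 lower, and 0.04 at day 3. At day 5 Shroom2 was between 5951 and 8768 reads per 1000000 in the 4 hairpin libraries, beside 6958 and 8128 with Nons, and the groups overlapped.

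**Figure D5:**
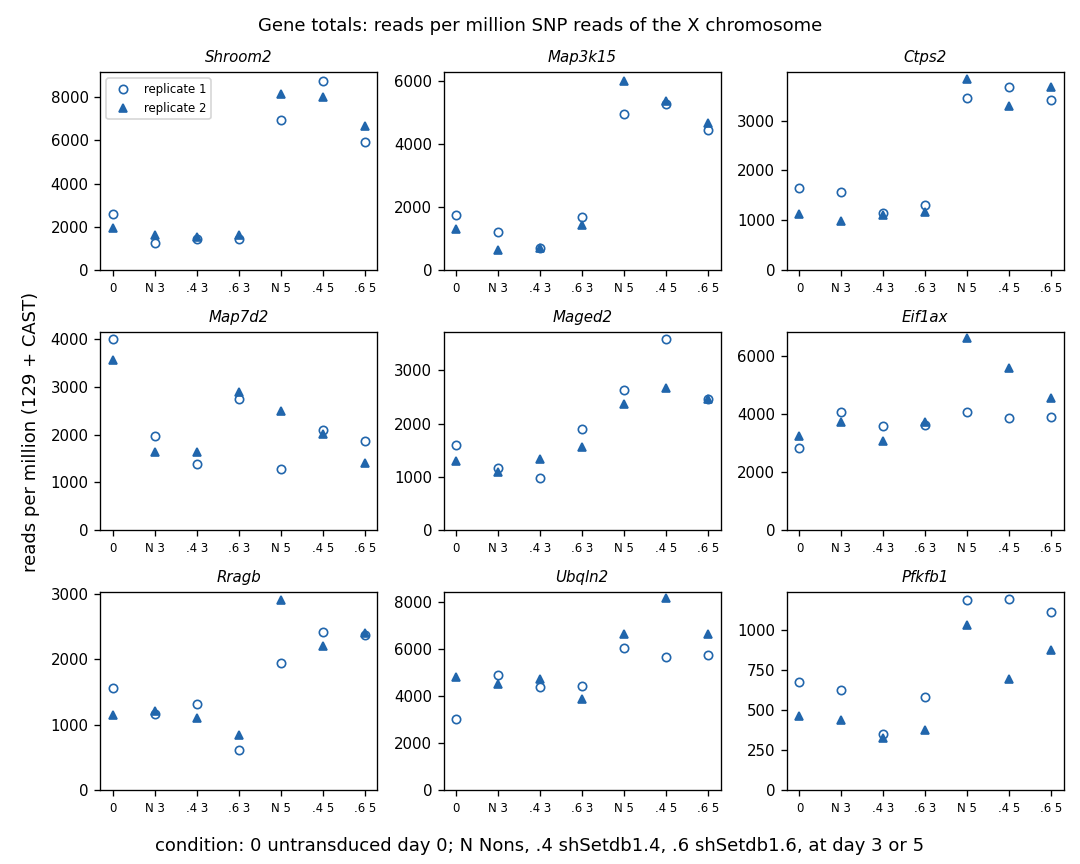
Reads of both alleles per 1000000 SNP reads of the X chromosome in each library, for the 9 genes whose total passed between day 0 and Nons at day 5. Open circles are replicate 1 and filled triangles replicate 2. Shroom2, Map3k15 and Ctps2 stay low at day 3 and are high in all 6 libraries of day 5, while Map7d2 is highest at day 0 with 4009 and 3559.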

How the data were processed

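The authors mapped 100 bp single-end reads of TruSeq libraries to mm10 with Subread and counted, with samtools pileup, the reads with the reference or the CAST base at X-linked SNPs of the Mouse Genomes Project. The deposited values are these raw counts per SNP and allele, with replicates kept apart. The submitters' processing notes also name CASAVA 1.8.2. Whether CAST bases were masked for these libraries, and whether strand was used, is not given in the sources used here. A reference preference would lower CAST counts, and reads of overlapping genes or of gene copies (Pdha1 overlaps Map3k15, and the Magea genes are similar to each other) cannot be told apart. The reference base was taken as that of 129. The table also holds 4 count columns of no sample analysed here, which were not used.

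SNPs were assigned by exons of GENCODE M21, and counts summed per gene. Xi/Xa is (CAST + 1)/(129 + 1), as log2, and SNPs needed 10 reads or more. Exact permutation tests compared the library medians. The gene models used edgeR 4.0.16 and R 4.3.3 (quasi-likelihood, Benjamini-Hochberg over 247 genes) on all 14 libraries. The allele counts had a term per library, an allele effect per condition and the replicate block, as the study compared hairpins with Nons within replicates. The totals had TMM normalization and no block. SE is the log2 difference divided by the square root of F. DESeq2 1.42.0 was an alternative. Tables and figures were made with Python 3.11.15, numpy 2.4.6, pandas 2.3.3 and matplotlib 3.10.9. On data simulated for the hairpin comparison at day 5, with 50 genes changed by a factor of 2, of which 49 passed the read filter, the allele test recovered 36 (73.5% of 49) with 2 false calls among 244 genes, while for totals it was 43 (87.8%) and 4 false calls. Intervals of counts were not computed, because without molecular identifiers the reads cannot be taken as independent molecules.

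The region, the gene lists and the tests were chosen with earlier results of these data known. Named genes are the up to 5 called genes with the smallest adjusted p per comparison and direction, the 10 with the most reads, the 3 highest and lowest at day 0, the members of the lists and the genes at both edges. Kantr, Gpr143, Magea8, Sat1 and other genes outside this rule were named after their values were seen. Same-numbered libraries deviated from their group means with a mean correlation of 0.051 for ratios (-0.14 to 0.27 over 21 pairs) and 0.21 for totals (-0.055 to 0.66). A correlation over genes leaves out a shift shared by all genes of a library. The check therefore cannot decide whether the numbers pair the libraries.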

Additional observations from a re-analysis of the deposited data

How the results depend on the processing

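The higher regional median with the hairpins at day 5, and the lower one in Nons at day 5 than at day 3, kept their direction under each alternative tried for the medians. Centring was run on gene fits and SNP shares. It took the median gene change from day 3 to day 5 from -0.23 to 0.11, and that of the hairpins at day 5 from 0.33 to 0.02. The difference at day 3 changed sign, to -0.039 with at least 20 reads per SNP, -0.025 for the mean, -0.028 for summed counts and -0.010 with the proximal 5 Mb left out, and lay between -0.013 and 0.025 with a replicate left out. Region minus rest at day 5 became 0.030 for summed counts. With ratios centred on each library's median, 31.4% and 31.6% of SNPs were higher with both hairpins, since centring removes the shift of the whole library. The calls at day 0 were 9, and 3 with 1 SNP per gene (fewer reads, with Siah1b as 1 of the 3; 10.7% of all genes), 5 with isolated SNPs (18.9%), and 3 to 6 with a library left out (10.5% to 14.6%). The fall of Klf8 was the 1 call from day 3 to day 5. There were 0 calls at 30 reads in every library, which removes Klf8 (9.6% of all genes), 0 with 1 SNP per gene (4.29%) and 2 with isolated SNPs (10.8%). With a library left out the value of Klf8 stayed below 0. Hairpins at day 5 gave 2 calls at 30 reads (8.47% of all genes) and 2 with isolated SNPs (7.08%). As given above, their count depended on replicate 1 of shSetdb1.4. The difference between the days gave 0 calls in each fit with all libraries (0% to 0.845% of all genes). For totals from day 0 to Nons at day 5 the replicate block raised the calls from 9 to 15, with the additional 6 on the lower side (1 lower call without the block, 7 with it), and 6 to 7 calls were made with a library left out (18.6% to 25.1% of all genes). Without the replicate block the allele fits gave 8 calls at day 0 (Gnl3l was lost), against 17.0% of all genes. They gave 1 from day 3 to day 5 (7.29%) and 0 with the hairpins at day 5 (0%). With the block 4.05% of all genes were called with the hairpins, so that those calls depend on it. The other causes were not tested. Leaving out libraries with the block kept, and isolated SNPs, were added after the data were seen. None of the genes called at day 0, from day 3 to day 5 or for totals changed sign in its comparison, nor did the 9 genes at an unadjusted p under 0.05 with the hairpins at day 5. With centring 1 gene was under that p, and Pdha1 and Huwe1 were near 0 (0.0427 and 0.0207). Without replicate 1 of Nons at day 5 Pdha1 was at 0.0041. Among the uncalled hairpin differences at day 5, centring gave -0.0494 for Gnl3l, -0.0531 for Prdx4 and -0.110 for Zrsr2, and 1 SNP per gene gave 0.0026 for Mbtps2. With a library left out and the block kept the values ran from -0.0945 to 1.29 for Gemin8, from -1.18 to 0.202 for Mbtps2 and from -0.182 to 0.0156 for Smc1a. Without the block Mbtps2 ran from -1.27 to 0.290 (0.0385 without replicate 1 of shSetdb1.4), and Smc1a from -0.218 to 0.0553 (0.0461 without replicate 2 of Nons). Depth limits single SNPs and the 14 genes that were not tested.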

Other observations

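Among the 14 genes too shallow for the test, Fam120c had 1 SNP with at least 10 reads at day 0, with a log2 CAST/129 ratio of 3.46. The gene had 62 reads in all libraries. Gpr143, a receptor of melanosomes, also had more reads from CAST, and it was named after its values were seen. At day 0 it had 149 CAST and 48 129 reads in replicate 1 and 19 and 4 in replicate 2, with all 7 of its SNPs above 0, from 1.00 to 2.00 on the log2 scale. Its totals differed between the replicates at day 0, with 2468 and 277 reads per 1000000 SNP reads of the chromosome, and were 58 and 88 in Nons at day 3. The ratio was above 0 in 13 of 14 libraries. With the filter lowered to at least 10 reads over all libraries Gpr143 was called at day 0 by edgeR, as were Magea8 and Sat1 on the lower side. Under that filter 12 of 55 genes of the region passed, against 17.5% of 355 genes.

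Magea8, a member of the MAGE-A family with close copies next to it, was below 0 in all 14 libraries, with a median of -1.58. At day 0 it had 7 CAST and 24 129 reads in replicate 1 and 4 and 25 in replicate 2. Its totals were 564 and 850 reads per 1000000 in Nons at day 3 and 69 and 61 in Nons at day 5. In the hairpin libraries of day 5 they were between 39 and 142. Whether reads of the copies were shared was not tested.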
